A study of Mus musculus with 2 samples.

Results

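Aquaporins are membrane channels that let water, and in some cases glycerol, cross cell membranes. The accessibility of their genes in newborn mouse kidney is described here for 10 members, Aqp1, Aqp2, Aqp3, Aqp4, Aqp5, Aqp6, Aqp7, Aqp8, Aqp9 and Aqp11, out of 21938 protein-coding genes of the GENCODE M21 annotation. The members were taken by name and no measured value entered the rule, but earlier results of these data were known when they were chosen. The tissue was kidney from B6NCrl mice at postnatal day 0, with no treatment named in the labels, and 1 group of 2 biological replicates was assayed by DNase-seq. DNase I cuts DNA that is not wrapped in nucleosomes, and a peak of cuts marks an accessible site. Both replicates carry 1 donor record in the labels, and sex is marked as not collected, so their spread may be only technical.

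In the kidney, water taken up along the proximal tubule passes mainly through Aqp1. In the collecting duct, vasopressin acts through its V2 receptor and cyclic AMP to move Aqp2 from vesicles to the apical membrane, and water leaves the cell through Aqp3 and Aqp4 on the other side. Aqp6 sits in vesicles of intercalated cells, Aqp7 carries glycerol in the proximal straight tubule, and Aqp11 lies in the endoplasmic reticulum of proximal tubule cells, where its loss leads to cysts in mice. These 7 genes form the renal set. The non-renal set holds the 3 whose main textbook sites are elsewhere, namely Aqp5 in glands and lung, Aqp8 in liver, pancreas, gut and testis, and Aqp9 in liver and leukocytes, although Aqp5 and Aqp8 have also been reported in kidney.

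The peak lists held 266133 peaks in replicate 1 and 257133 in replicate 2, with a median deposited signal of 17.1 and 16.9. They hold no read counts, so depth and the precision of a single peak are unknown. Promoter peaks were present in both replicates at 8 of 8 kidney marker genes, 6 of 6 collecting duct genes and 3 of 5 proximal tubule genes, where Slc34a1 and Slc5a2, transporters of phosphate and glucose, had none. Among other cell types the count was 3 of 3 for endothelium, 2 of 3 for erythroid cells (none at Alas2), 1 of 3 for hepatocytes (none at Alb and Ahsg), 2 of 3 for leukocytes, 1 of 2 for adipocytes (none at Adipoq), 1 of 1 for astrocytes and 0 of 2 for lung and gland. The share of all protein-coding genes with such a peak in both replicates was 71.8%. Counts near that share, such as 3 of 5 or 2 of 3, do not set a list apart from other genes. The kidney and proximal tubule lists have 1 gene in common. In whole tissue, fewer cells of a type and less accessibility per cell cannot be told apart.

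Nearly all aquaporin genes had an accessible site near some annotated start in newborn kidney. The signals of these sites lay below the median promoter signal of genes with a promoter peak in both replicates. A gene was counted when at least 1 bp of a peak fell within 1 kb of a transcription start site (TSS) of any of its transcripts. Of the 10 members, 9 had such a peak in both replicates, and the background share of all protein-coding genes was 71.8%. The exception was Aqp2. At Aqp4 and Aqp7 the peaks counted lay near internal TSSs only, and at Aqp9 the shared site lay 5372 and 6028 bp from the RefSeq gene starts. The rule gives genes with many TSSs more chances, and Aqp9 had 10 TSSs and Aqp4 had 7. In replicate 1 alone the count was 9 of 10 (background 72.8%), and in replicate 2 it was 10 of 10 (background 72.9%). By set, 6 of 7 renal and 3 of 3 non-renal aquaporins had a promoter peak in both replicates. When only peaks of at least the median signal of their replicate were kept, the renal count was 5 of 7 and the non-renal count 1 of 3, and the background share was 66.3%. Genes are not replicates and the study has 1 group, so no test was run on these counts.

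The strength of a promoter is given as the deposited signal of its strongest peak, on the authors' scale, and every promoter peak of the family was 150 bp wide. Aqp11 and Aqp7 stood well above the other members, at 85.9 ± 7.41 and 74.1 ± 1.71 (mean ± SD, n = 2 for every such value). The value of Aqp7 comes from an internal noncoding TSS and is 14.3 with TSSs of coding transcripts, which is above only Aqp9 among the members with a peak in both replicates. Aqp1 followed at 30.8 ± 3.90, then Aqp4 at 24.4 ± 4.46 and Aqp3 at 23.8 ± 3.68. Aqp8 had 19.9 ± 3.09, Aqp5 18.1 ± 3.10, Aqp6 16.5 ± 1.91 and Aqp9, the lowest, 12.1 ± 3.38. Of the 8 steps in this order, 4 joined neighbours whose replicate values overlapped, which were Aqp4 with Aqp3, Aqp3 with Aqp8, Aqp8 with Aqp5, and Aqp5 with Aqp6. The median over the 15743 protein-coding genes with a promoter peak in both replicates was 99.8, above all 9 members. Replicate 2 gave the higher value for 7 of the 9.

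**Figure D1:**
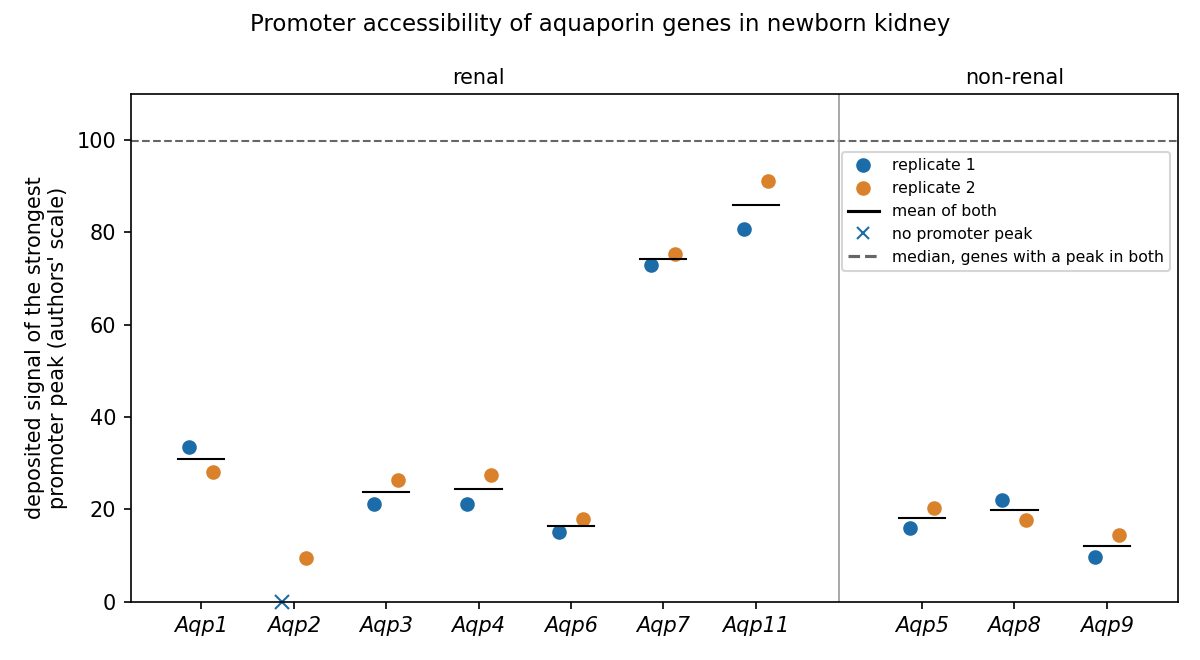
Deposited signal of the strongest promoter peak (y axis, authors' scale) of each aquaporin gene, renal genes on the left and non-renal genes on the right. Points are the replicates, bars their means, the cross marks the absence of a promoter peak in replicate 1 at Aqp2, and the dashed line is the median of 99.8 over all genes with a promoter peak in both replicates. Aqp7, through an internal noncoding TSS, and Aqp11 lie above the other members, and all members lie under the line.

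Renal aquaporins had means of 16.5 to 85.9 with a median of 27.6, and non-renal aquaporins had means of 12.1 to 19.9 with a median of 18.1. The ranges overlapped, because Aqp6 lay under both Aqp5 and Aqp8. By mean, the other 5 of the 6 renal genes with a peak in both replicates lay above all 3 non-renal genes. With TSSs of coding transcripts, 4 of 6 did. The replicates differed in this, since in replicate 1 Aqp3 and Aqp4, each at 21.2, lay below Aqp8 at 22.1. The order of the means also rests on 3 genes in 1 set and on TSS choice at Aqp7 and Aqp4, as described for those genes.

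The share of genes with a promoter peak in both replicates was 19.2% in the lowest and 99.0% in the highest quintile of promoter CpG content, so each member was placed in its quintile by the observed to expected CpG ratio, taken over 500 bp on either side of the most 5′ TSS. Aqp7 fell in quintile 1 with a ratio of 0.144, and Aqp1, Aqp2, Aqp4, Aqp6, Aqp8 and Aqp9 in quintile 2. Aqp3 fell in quintile 3, Aqp11 in quintile 4 and Aqp5 in quintile 5 with a ratio of 0.905. In quintile 2, 5 of 6 members had a promoter peak in both replicates, where the share of all genes was 53.0%. Signal was below the median of the member's own quintile for 8 of 9 members, and the exception was Aqp7, at 74.1 where its quintile had a median of 36.7. The quintile of Aqp7 is that of its most 5′ TSS, whereas its 74.1 comes from an internal noncoding TSS. With TSSs of coding transcripts Aqp7 had 14.3, and all 9 members lay below the same medians. Those medians were taken over TSSs of any type and were not recomputed. The restriction can only lower a member's signal, so this count is not a like comparison. Aqp5 stood furthest from the genes of its class, at 18.1 in a quintile whose median was 133.6.

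Aqp1, the constitutive water channel of the proximal tubule, also occurs in endothelium and red cells. Markers of these cells had promoter peaks in both replicates at 3 of 3 and 2 of 3 genes, where the background share was 71.8%. Their part in the Aqp1 result was not tested. Its promoter peak reached 33.6 in replicate 1 and 28.1 in replicate 2, centred 137 and 117 bp upstream of its only annotated TSS. The gene lies on chromosome 6 at 55336432 to 55348555 on the plus strand (GRCm38, the assembly also called mm10). Its mean put it at percentile 15.5 among genes with a promoter peak in both replicates. The shared site spans 55336221 to 55336390, and the RefSeq start of Aqp1 lies inside it. The stretch of the site outside annotated exons is shown because it belongs to the promoter site of the main renal water channel gene. It is the upstream part of the site and ends before its middle. None of the motifs searched lies in these letters, although the site as a whole holds the SP/KLF motif GGGCGG.
Aqp1 promoter part (chr6:55336221-55336298, plus strand): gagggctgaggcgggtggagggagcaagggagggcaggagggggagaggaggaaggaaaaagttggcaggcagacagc

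Around Aqp1, 10 shared distal sites lay within 50 kb, with 5 upstream and 5 downstream. A shared site is the union of overlapping peaks that holds a peak of each replicate, and it is distal when its centre lies more than 1 kb from every annotated TSS. The strongest, at 52.9 in replicate 1 and 44.6 in replicate 2, lay 41707 bp upstream in an intron of Mindy4. Inside Aqp1 itself a single intronic site had 19.1 and 22.5. Ghrhr, the receptor gene for growth hormone releasing hormone and the only other coding gene with a TSS in the window, had no promoter peak in either replicate. The Ghrhr gene body nevertheless held a site of 37.5 and 38.9 in an intron and one of 35.3 and 30.3 in an exon, both above the Aqp1 promoter. Nearness alone does not show which of these sites, if any, act on Aqp1, and the same holds for the other members.

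The channel most closely tied to vasopressin, Aqp2, had the weakest promoter evidence of the family. No peak lay within 1 kb of its TSS in replicate 1, and replicate 2 had 1 peak, centred 480 bp upstream, with a signal of 9.42. That value stood at percentile 5.68 among all peaks of replicate 2. The nearest shared site to the RefSeq start began 4885 bp downstream. It lay in an exon of Aqp2 (chr15:99583941-99584110) and had signals of 35.98 and 35.45. A further site just past the end of the gene (chr15:99584921-99585090) had 43.2 and 45.7. Both stood well above the 9.42 of the promoter peak.

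Aqp2, Aqp5 and Aqp6 lie in a row on the plus strand of chromosome 15, with most 5′ TSSs 11727 bp (Aqp5) and 22345 bp (Aqp6) from that of Aqp2. The strongest sites of the cluster were not at any of these starts. A pair of sites in the intergenic stretch between Aqp5 and Aqp6 had signals of 62.4 in replicate 1 and 73.9 in replicate 2 for the first and 59.9 and 72.8 for the other. They lay 17120 and 17540 bp downstream of the Aqp2 TSS, and 5225 and 4805 bp upstream of the Aqp6 TSS. In replicate 2 both exceeded their replicate 1 values. The first stood at percentile 93.7 in replicate 1 and 95.9 in replicate 2 among all shared distal sites. Their sequences are shown because they are the strongest sites shared by the windows of these 3 genes. Capitals mark a match to the extended CTCF core, a form of the binding motif of the insulator protein CTCF that was chosen after the sequences had been seen. Both sites hold the same 10 letters in the same orientation.
Aqp5 to Aqp6 site, first (chr15:99596101-99596250, plus strand): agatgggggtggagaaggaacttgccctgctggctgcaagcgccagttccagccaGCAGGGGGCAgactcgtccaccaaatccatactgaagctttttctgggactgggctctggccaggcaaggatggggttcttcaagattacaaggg
Aqp5 to Aqp6 site, other (chr15:99596521-99596670, plus strand): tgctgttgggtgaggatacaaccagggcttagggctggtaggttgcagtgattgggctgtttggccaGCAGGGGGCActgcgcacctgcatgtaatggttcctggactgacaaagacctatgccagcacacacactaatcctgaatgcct

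**Figure D2:**
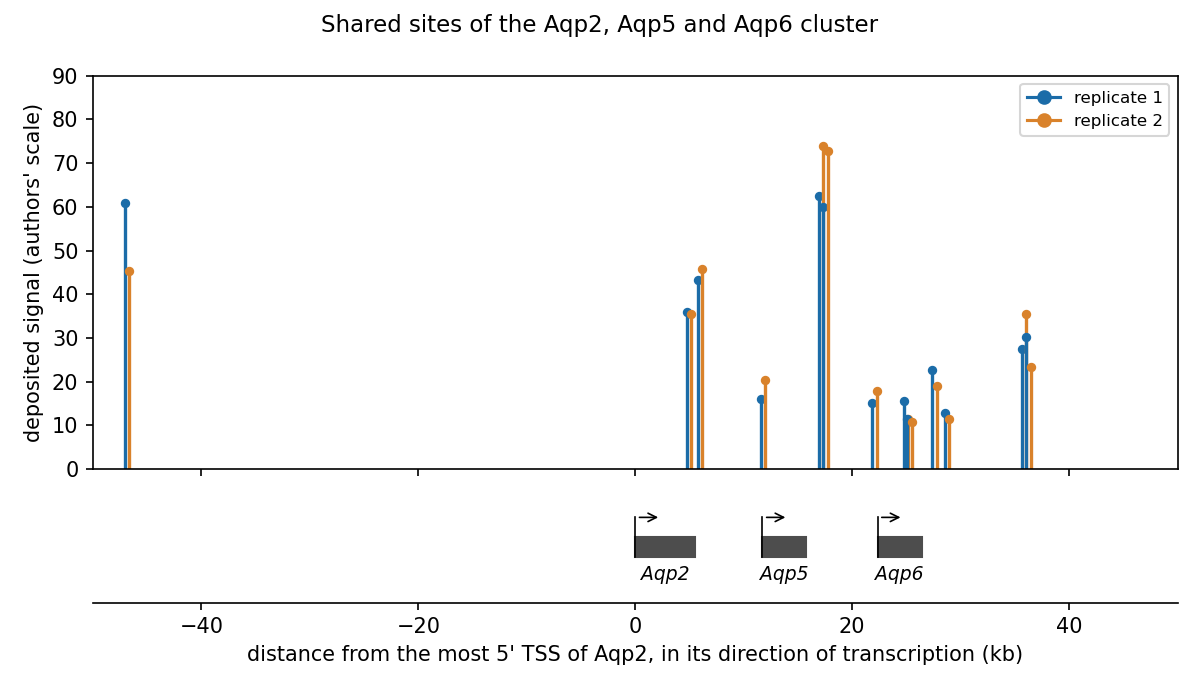
Shared sites within 50 kb of the Aqp2 TSS, with the distance from that TSS in kb on the x axis and deposited signal (authors' scale) on the y axis. Lines with a dot are the replicates, drawn side by side, and boxes are the genes with their direction of transcription. The pair between Aqp5 and Aqp6 reaches 73.9, and no shared site stands at the Aqp2 start.

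Of the 11 distal sites in the Aqp2 window, 1 lay upstream and 10 downstream. The upstream one (chr15:99532121-99532290) was 46850 bp away and 4040 bp from the TSS of Faim2, and had 61.0 and 45.2. A downstream run of 6 sites in and beyond Aqp6 was weaker, at 10.7 to 35.4 over both replicates, and the first 2 of them lay in exons of Aqp6. The windows of Aqp2, Aqp5 and Aqp6 share 10 of these distal sites, so their counts are not independent. Aqp6 had 12 distal sites, as its window also took in 2 intronic sites of Racgap1.

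Aqp6, the anion-permeable channel of intercalated cell vesicles, had a promoter peak at the same position in both replicates (chr15:99601041-99601190), with signals of 15.2 and 17.9. It was centred 285 bp upstream of the GENCODE TSS and ended 10 bp before the RefSeq start. Its mean stood at percentile 5.47 among genes with a promoter peak. Foxi1, the transcription factor that specifies intercalated cells, had no promoter peak in either replicate.

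Aqp5, the water channel of salivary and lacrimal glands and of lung, had its promoter peaks almost on the TSS. Signals were 16.0 in replicate 1 and 20.3 in replicate 2, with centres 13 and 73 bp downstream of the most 5′ TSS. The 2 markers of lung and gland, Sftpc and Scgb1a1, had no promoter peak. The promoter of Aqp5 is the richest in CpG of the family, as the exon-free start of its site shows, and no motif searched lies in these letters.
Aqp5 promoter part (chr15:99590721-99590781, plus strand): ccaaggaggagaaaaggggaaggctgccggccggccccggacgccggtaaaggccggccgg

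Aqp3 and Aqp7 are aquaglyceroporins, which carry glycerol as well as water, and they follow each other on the minus strand of chromosome 4. Aqp3, the basolateral channel of the collecting duct, had 3 shared promoter sites. The one on the TSS (chr4:41098041-41098190) had 21.2 in replicate 1 and 15.6 in replicate 2. The middle one (chr4:41098421-41098630) had 17.6 and 17.4. The outer one (chr4:41098761-41098930), 662 bp upstream, had 17.6 and 26.4. The strongest peak was therefore at the TSS in replicate 1 and at the outer site in replicate 2, and the SD given for Aqp3 spans different sites. Replicate 2 had a further peak of 23.1 at the start of a retained-intron transcript that replicate 1 lacked. The outer site is shown because it has the highest mean of the 3, and capitals mark its match to the CTCF motif CCACNAGG.
Aqp3 outer promoter site (chr4:41098761-41098930, minus strand): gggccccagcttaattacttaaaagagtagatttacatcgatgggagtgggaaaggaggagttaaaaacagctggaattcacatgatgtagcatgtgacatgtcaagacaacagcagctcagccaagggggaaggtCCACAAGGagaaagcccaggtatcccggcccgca

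At Aqp7, which is also the glycerol channel of fat cells, the high promoter signal came from an internal TSS. The site (chr4:41041161-41041330) had 72.9 in replicate 1 and 75.3 in replicate 2, close together. It lay near the start of a noncoding processed transcript at 41040967, 6894 bp downstream of the most 5′ TSS. No peak lay within 1 kb of the most 5′ TSS. At the TSSs of transcripts typed protein coding, the strongest peak had 12.6 and 15.9, a mean of 14.3, which would place Aqp7 among the lowest members. Of the adipocyte markers, Plin1 had a promoter peak of 64.8 and 72.2 and Adipoq had none, and their part in the Aqp7 result was not tested. The internal site is shown because the rank of Aqp7 rests on it.
Aqp7 internal site (chr4:41041161-41041330, minus strand): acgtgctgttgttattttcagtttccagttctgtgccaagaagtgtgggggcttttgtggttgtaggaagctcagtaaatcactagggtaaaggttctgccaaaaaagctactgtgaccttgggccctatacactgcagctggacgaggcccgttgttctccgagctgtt

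Aqp3 and Aqp7 had 10 and 11 distal sites, several of them in both windows. The strongest for both (chr4:41055241-41055410) lay 7186 bp upstream of Aqp7 and had 52.9 and 52.5, which differed by less than most sites did. For Aqp3 this rank was narrow, since a site 31402 bp upstream of it (chr4:41129501-41129670) had 47.0 and 57.8, a mean of 52.4 against 52.7, and was the higher in replicate 2. Closer still, 2746 bp upstream of Aqp7, a site at the small nuclear RNA gene Gm25637 had 96.3 and 107.2. It counts as a promoter site of that RNA gene and not as distal. It is shown because it is the strongest site between the starts of Aqp3 and Aqp7, and capitals mark the extended CTCF core, in reverse orientation.
Site at Gm25637 (chr4:41050801-41050970, minus strand): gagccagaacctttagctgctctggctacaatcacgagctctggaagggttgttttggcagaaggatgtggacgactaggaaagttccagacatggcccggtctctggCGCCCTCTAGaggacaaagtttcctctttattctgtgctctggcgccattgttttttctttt

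**Figure D3:**
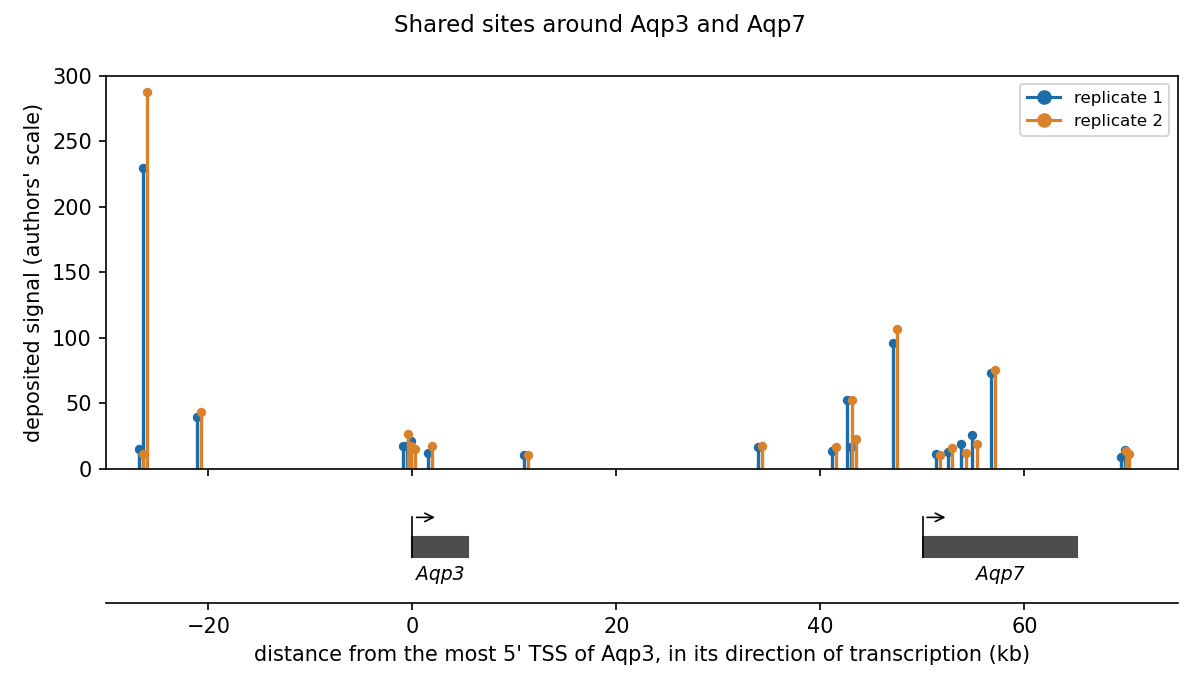
Shared sites around Aqp3 and Aqp7, with the distance from the most 5′ TSS of Aqp3 in kb on the x axis and deposited signal (authors' scale) on the y axis. Lines with a dot are the replicates, drawn side by side, and boxes are the genes. The tallest lines, at 229.5 and 287.9, are the promoter of Nol6, and those at 72.9 and 75.3 inside Aqp7 are the internal site.

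Neighbouring promoters in the Aqp3 window were far stronger than that of Aqp3. Nol6, which encodes a nucleolar protein, had 258.7 ± 41.3, and Ube2r2, a ubiquitin-conjugating enzyme gene, had 95.7 ± 7.44. Their most 5′ TSSs lie 26272 and 37560 bp upstream of that of Aqp3.

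Aqp4, the other basolateral channel of the collecting duct and the main channel of astrocyte end feet, had the fewest distal sites of the family. Its promoter signal of 21.2 in replicate 1 and 27.5 in replicate 2 came from peaks that reached only 63 and 43 bp into the window of an internal coding TSS. Their centres lay 1013 and 1033 bp from that TSS and 3907 and 3927 bp downstream of the most 5′ TSS, in an intron. With a window of 500 bp, replicate 1 had a peak of 13.7 and replicate 2 had none. The window of 50 kb held 3 distal sites, all inside the gene, where the median gene had 6 and the 25th percentile was 2. The astrocyte marker Gfap had promoter peaks of 92.6 and 123.0, and its part in the Aqp4 result was not tested.

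Aqp11 had the highest promoter signal and the strongest distal site of the family. Its promoter site (chr7:97738041-97738210) had 80.6 in replicate 1 and 91.1 in replicate 2, centred 154 and 174 bp downstream of the most 5′ TSS and its nearer edge lay 37 bp from the RefSeq start. This placed it at percentile 43.1 among genes with a promoter peak, the highest of the family. The 13 distal sites were also the most for any member, with 11 upstream and 2 downstream. A cluster of 5 of them lay 10006 to 11766 bp upstream. The first of these, at 98.2 and 104.6, was the strongest distal site of any member, at percentile 98.8 in both replicates. It is shown for that reason, with the extended CTCF core in capitals, in reverse orientation.
Aqp11 upstream site (chr7:97748221-97748370, minus strand): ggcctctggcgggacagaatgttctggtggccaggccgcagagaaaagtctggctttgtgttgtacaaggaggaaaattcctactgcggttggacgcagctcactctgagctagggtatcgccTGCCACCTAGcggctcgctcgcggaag

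Aqp8, a water channel of liver, pancreas, colon and testis, had its promoter peak at the same place in both replicates (chr7:123462101-123462250), 116 bp upstream of the TSS. Signals were 22.1 and 17.7. An intronic site 3584 bp downstream of the TSS was much stronger, at 50.1 in replicate 1 and 69.6 in replicate 2. Its percentile among shared distal sites was 89.0 in replicate 1 and 95.1 in replicate 2. Both sequences are shown for contrast, since the promoter holds no motif searched and the intronic site holds the extended CTCF core, in capitals and in reverse orientation.
Aqp8 promoter (chr7:123462101-123462250, plus strand): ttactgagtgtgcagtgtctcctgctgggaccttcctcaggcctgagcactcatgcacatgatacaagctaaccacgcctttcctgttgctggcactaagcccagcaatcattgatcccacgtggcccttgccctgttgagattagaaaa
Aqp8 intron site (chr7:123465801-123465950, plus strand): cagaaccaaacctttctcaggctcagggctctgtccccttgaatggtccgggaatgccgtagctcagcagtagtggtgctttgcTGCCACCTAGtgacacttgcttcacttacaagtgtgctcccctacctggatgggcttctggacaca

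Aqp9, the glycerol and urea channel of hepatocytes, had the weakest promoter of those found in both replicates. The shared site at its most 5′ TSS had 9.72 in replicate 1 and 13.3 in replicate 2. It also lies at the start of the antisense gene Gm32511, and the RefSeq starts of Aqp9 are 5372 and 6028 bp from it. The highest peak in replicate 2, at 14.5, was at another TSS, so its SD spans different sites. Of the markers of cells that use Aqp9, Alb and Ahsg of hepatocytes had no promoter peak, Apob had 42.6 and 56.1, and the leukocyte genes Spi1 and Laptm5 had 12.9 ± 1.56 and 12.1 ± 2.02, while Ptprc had 8.72 in replicate 1 and no peak in replicate 2. Their part in the Aqp9 result was not tested. The exon-free part of the promoter site is shown because it holds the only cyclic AMP response element (CRE, TGACGTCA) found among those sites of the family that reach into a promoter window, in capitals.
Aqp9 promoter part (chr9:71168683-71168775, minus strand): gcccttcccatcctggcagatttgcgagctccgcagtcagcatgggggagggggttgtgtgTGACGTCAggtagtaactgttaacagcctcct

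Distal sites around Aqp9 were strong for so weak a promoter. There were 11, with 9 upstream and 2 downstream. The strongest (chr9:71188721-71188890) lay 20123 bp upstream in an intron of Gm32511, with 60.8 in replicate 1 and 92.5 in replicate 2, a spread of 22.4 (SD). It led by its mean of 76.7, whereas a site in an intron of Aldh1a2 (chr9:71217441-71217710) had 82.98 and 63.1, a mean of 73.0, and was the stronger in replicate 1. A neighbour at 71189141 to 71189290 had 53.05 and 54.95. Inside Aqp9 an intronic site 39597 bp downstream of the most 5′ TSS had 52.9 and 56.7. Of the other upstream sites, 3 lay in the gene body of Aldh1a2, which encodes a retinoic acid synthesis enzyme and whose own promoter had 100.2 ± 8.99. The strongest Aqp9 site is shown because no other distal site around a non-renal aquaporin had a higher mean, and no motif searched lies in its letters.
Aqp9 upstream site (chr9:71188721-71188890, minus strand): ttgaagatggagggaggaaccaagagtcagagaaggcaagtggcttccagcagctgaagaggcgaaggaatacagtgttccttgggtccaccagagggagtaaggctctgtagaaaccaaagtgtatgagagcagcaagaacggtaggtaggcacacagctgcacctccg

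**Figure D4:**
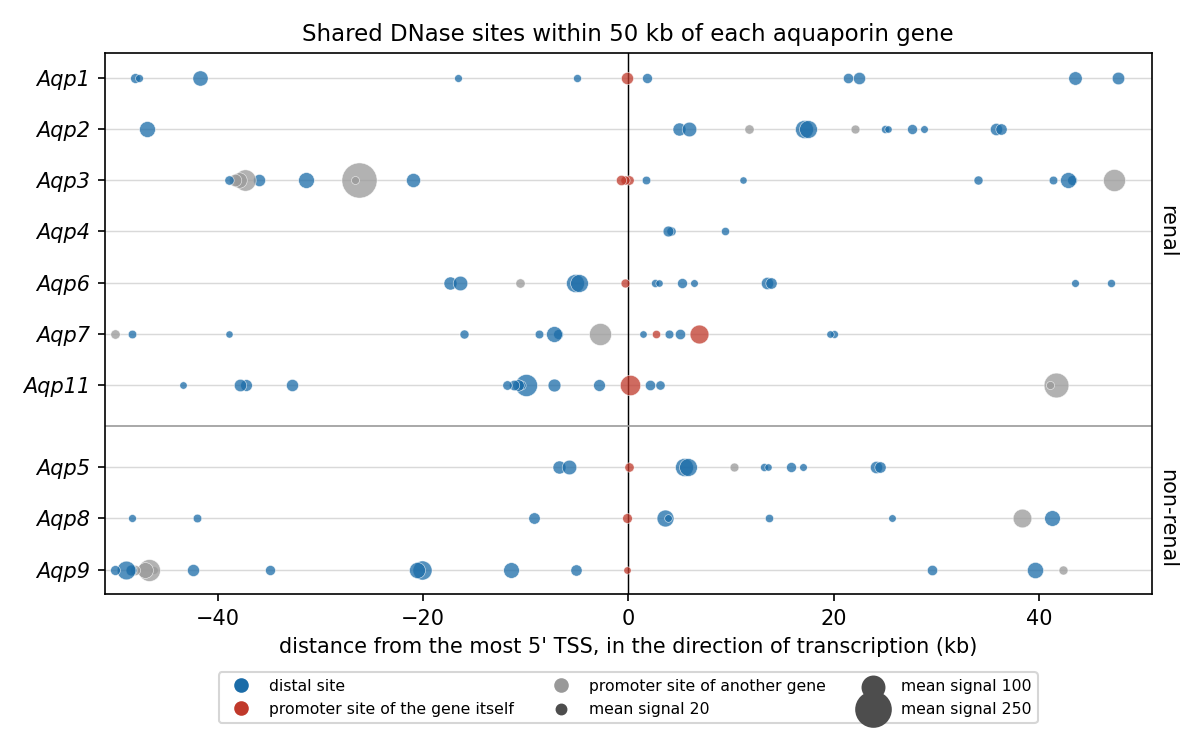
Map of the shared sites in the window of 50 kb around each aquaporin gene, renal genes above and non-renal genes below, with distance in kb from the most 5′ TSS in the direction of transcription on the x axis. Blue dots are distal sites, red dots promoter sites of the gene itself and grey dots promoter sites of other genes, and dot area follows mean signal. Aqp4 shows 3 sites and Aqp11 has most of its 13 distal sites upstream.

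Across the family, distal sites were as numerous around renal as around non-renal genes. Renal aquaporins had 3 to 13 distal sites within 50 kb, with a median of 11 and a mean of 10 ± 3.27 (SD over 7 genes). Non-renal aquaporins had 8 to 11, with a median of 10 and a mean of 9.67 ± 1.53 (SD over 3 genes). The ranges overlapped fully. The median over all protein-coding genes was 6, with the 25th percentile at 2 and the 75th at 11, so only Aqp6 and Aqp11 exceeded the 75th percentile. Of the 73 distinct distal sites, 10 lay in the windows of both a renal and a non-renal gene, all in the chromosome 15 cluster. These counts depend on the window and on the peak threshold.

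**Figure D5:**
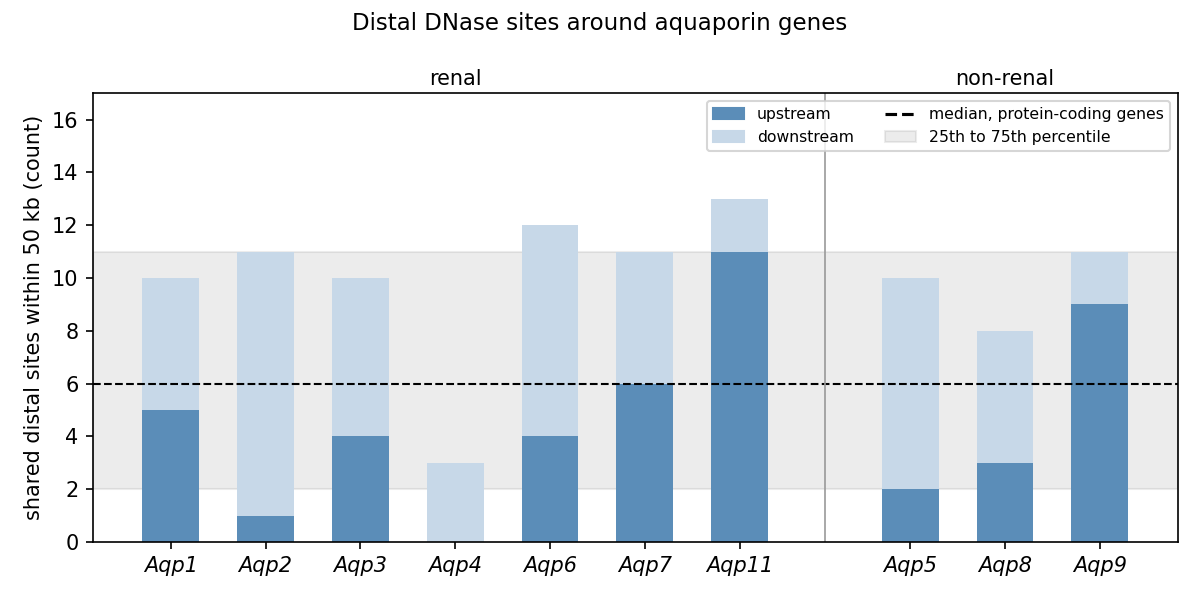
Shared distal sites in the window of 50 kb (y axis, count) for each aquaporin gene, renal genes on the left and non-renal genes on the right, with dark bars upstream and light bars downstream. The dashed line is the median of 6 over all protein-coding genes and the grey band runs from the 25th to the 75th percentile. Aqp4 has 3 sites and Aqp11 has 13.

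For 7 of the 9 members with a promoter peak in both replicates, the strongest shared distal site exceeded the promoter peak in both replicates. One exception was Aqp4, whose strongest distal site is also its promoter peak, and the other was Aqp7. With TSSs of coding transcripts the call for Aqp7 turned, since its promoter peak was then 12.6 and 15.9, and the count was 8 of 9. Over all genes with a promoter peak in both replicates the share was 28.1% with TSSs of any type, which compares with the 7 of 9. The share with TSSs of coding transcripts was not computed. Among the 6 members in CpG quintiles 1 and 2 with a promoter peak in both replicates the count was 4, where the share of such genes in those quintiles was 54.2%. Aqp5 and Aqp6 entered with the same distal site. This comparison was chosen after the values had been seen.

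The sites of the family varied between replicates about as much as others. The median absolute log2 ratio of the replicates was 0.24 over the 98 shared sites in the family's windows and 0.23 over all shared sites, and the highest for a site of the family was 0.77. Median distal signal was 22.6 in replicate 1 and 23.0 in replicate 2 for the family, and 19.8 and 18.6 for all distal sites. Of the 73 distal sites, 33 were intronic (45.2%, and 52.8% of all distal sites), 34 intergenic (46.6%, and 42.1%) and 6 exonic (8.22%, and 5.13%). A member was the nearest protein-coding gene for 43 of the 73.

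Motif searches covered the middle 150 bp of each site and took exact letters on either strand. In all, 12 shared sites reached into a promoter window of the family, 1 of them the Aqp4 site that also counts as distal. Of these, 3 held the SP/KLF motif GGGCGG (Aqp1, Aqp3 and Aqp11), and 30.0% of all promoter sites did. The CRE stood at Aqp9 (1.25% of all promoter sites), the TATA box TATAAA at Aqp3 (4.05%) and CCACNAGG at Aqp3 (3.95%). None held HNF4 (CAAAGTCCA, 0.274%), the letters AGATAA read by GATA factors (3.46%), ETS (CCGGAAG, 5.95%), forkhead (TGTTTAC, 1.75%) or AP-1 (TGANTCA, 3.92%). Most of these motifs are rare in promoter sites, and a missing match says only that the letters are not in the window.

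Of the 73 distal sites, 4 each held GATA (5.48%, and 6.97% of all distal sites), TATA (5.48%, and 9.01%) and AP-1 (5.48%, and 6.90%). There were 3 each with SP/KLF (4.11%, and 5.60%) and CCACNAGG (4.11%, and 5.04%), 2 with forkhead (2.74%, and 3.18%) and 1 with HNF4 (1.37%, and 0.362%). None held ETS (1.52% of all distal sites) or CRE (0.314%). The extended CTCF core, which shares letters with CCACNAGG, was in 8 of the 73 (11.0%, and 7.02%) and in none of the 12 promoter sites (5.46% of all). Strong distal sites hold it more often in general. Among sites in the upper 10% of mean signal, at 51.9 or more, it was in 4 of 11 of the family and in 23.5% of all 15113. Those 4 include the pair between Aqp5 and Aqp6, which hold the same letters. The core was chosen after the family's sequences had been seen, so its shares are no evidence of a difference from other sites. All motif matches are letters found in accessible sites, and binding was not measured.

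Genes of vasopressin signalling and vesicle trafficking, which act on Aqp2, had accessible promoters for the most part, as did protein-coding genes in general. Of 32 genes in the pathway list, which also holds other channels, 27 had a promoter peak in both replicates, where the background share was 71.8%. The list was not compared with genes of like promoter CpG content. By role, the count was 8 of 9 for vasopressin signalling, 5 of 5 for vesicle trafficking, 10 of 11 for transcription factors and the kinase Sgk1, and 4 of 7 for other water and solute channels. The 3 highest were Hspa8, a chaperone that binds Aqp2, with 292.1 and 297.5, Prkaca, the catalytic subunit of protein kinase A, with 248.5 and 237.5, and Creb1, a factor that binds the CRE, with 217.5 and 247.5. Avpr2, the V2 receptor gene, had a peak of 10.1 in replicate 2 alone, and so had the urea transporter gene Slc14a2, at 10.6. Aqp2 also had a weak promoter peak in replicate 2 alone. The share of all protein-coding genes with a promoter peak was 72.9% in replicate 2 and 71.8% in both replicates. Calls this weak in 1 of 2 replicates do not show that these genes are alike.

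Transcription factors of the collecting duct ranged widely. Elf3, an epithelial ETS factor, had 90.3 in replicate 1 and 118.9 in replicate 2, and Elf5 had 44.8 and 41.1. Gata3 had 45.5 and 40.1, and Tfcp2l1 had 40.1 and 51.3. All 4 exceeded Aqp2, Aqp3, Aqp4 and Aqp6 in each replicate, but Ehf, a further epithelial ETS factor of the list, had 24.0 and 22.1, below Aqp3 and Aqp4 in replicate 2. Foxi1 had no promoter peak in either replicate, and the other genes of the list without a promoter peak in either replicate were Mip, the aquaporin of the lens, and Aqp12, the aquaporin of pancreatic acinar cells, which are family relatives outside the 10 members.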

How the data were processed

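DNase-seq peaks of newborn mouse kidney were analysed for 2 samples of 1 group. Per the file headers, the authors made 1 narrowPeak list per sample from 1 alignment of 36-nt reads to the mm10 assembly without alternate sequences, so peaks were not called on pooled samples. The aligner, peak caller, threshold, filters and any scaling by sequencing depth were not given in the sources used here. Each deposited signal is a multiple of 1/64 and was used to describe, rank and filter peaks. The deposited −log10 p was read only to describe the lists and rests on the authors' caller. Because depth is unknown, no interval is given.

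TSSs and gene types came from GENCODE M21, and sequences and further gene starts from RefSeq (GRCm38, the same build as mm10), whose promoter table held 9 of the 10 members. Chromosomes 1 to 19, X and Y were used. Peaks were shared at an overlap of at least 1 bp. A percentile ranks a value among all peaks, genes or shared distal sites as named. With 1 group of 2 samples no test between groups exists, and each replicate's value or mean ± SD is printed. Sequences were printed only where at least 60 bp lay outside annotated exons.

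The members and all gene lists and motifs were chosen with earlier results of these data known. All members are named. Of the pathway list, the 3 highest genes, those with no promoter peak and a few preset genes are named. A gene and a motif of these lists are not reported here, although counts include the gene. Other genes are named where their TSS lies within 50 kb of a member or where they hold a named site. The strongest distal site of each member is named, and further sites, and Ehf, were picked after their values had been seen. Alternatives covered the promoter window, distal window, peak strength, overlap, TSS type, set membership and leaving out each replicate. Site merging and promoter calls were tested on simulated data. Python 3.11.15, numpy 2.4.6, pysam 0.24.0 and matplotlib 3.10.9 were used.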

Additional observations from a re-analysis of the deposited data

How the results depend on the processing

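The count of aquaporins with a promoter peak in both replicates was 9, and it was 8 with a promoter window of 500 bp, which lost Aqp4, 9 with 2 kb, 9 with TSSs of coding transcripts and 9 to 10 when a replicate was left out. Kept to peaks of at least the median signal (the upper 50%), it was 6, which lost Aqp5, Aqp6 and Aqp9. That setting took the non-renal count to 1, against 3 with all peaks, while the renal count was 5 to 7 over all settings. The renal count of 7 arose in replicate 2 alone, and when Aqp5 or Aqp8 was added to the renal set, which then held 1 gene more. The pathway list gave 25 to 29 of 32, against 27.

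Counts of distal sites followed the window and the list. The renal median was 11, and it was 5 within 25 kb, 19 within 100 kb, 7 with the upper 50% of peaks, 9 when overlap had to reach 50% of both peaks, and 14 to 17 when a replicate was left out and single-replicate peaks were counted. The non-renal median was 10, and it was 4 within 25 kb, 21 within 100 kb, 7 with the upper 50%, 8 with the stricter overlap and 14 to 15 without a replicate. At 100 kb the renal median was thus the lower of the sets, and at 50 kb the higher. Moving Aqp5 or Aqp8 to the renal set gave medians of 10.5 for renal and 9.5 to 10.5 for non-renal genes. The count of members whose strongest distal site exceeded the promoter peak, 7 of 9, was 6 to 8 under the settings tried (alternatives chosen after seeing the data), except 4 with the upper 50% of peaks. There only 6 members had a promoter peak in both replicates, so the count was 4 of 6. The number of members that could be counted also changed with the promoter window and with leaving out replicate 1. Over the other promoter windows and TSS types, only the promoter signal of Aqp7 moved beyond the SD of the replicates, to 14.3 with coding TSSs. Leaving out a replicate could not show such a move, because each of 2 values always lies within their SD of the mean. Aqp4 had no value at 500 bp, since replicate 2 had no peak there.

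No paired analysis was possible because the study has 1 group. Depth and the scaling of signal are unknown, both replicates share 1 donor record, and no cell type was separated, so the values describe these libraries.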
